A study of Mus musculus with 6 samples.

Results

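Histone H3 can carry a methyl or an acetyl mark on lysine 27, and 9 genes that remove the first or set and remove the second were followed through the cells of the mouse forebrain. They are the H3K27 demethylases Kdm6a and Kdm6b, the acetyltransferases Ep300 and Crebbp, and the deacetylases Hdac1, Hdac2, Hdac3, Hdac9 and Hdac11. They were chosen by gene symbol, each symbol matched 1 row, and the 9 rows were drawn from 32285 genes. Single-nucleus RNA sequencing (snRNA-seq) counts transcripts as unique molecular identifiers (UMIs) in nuclei caught in droplets. It was performed on untreated forebrain at postnatal day 16 from 3 wild-type (WT) mice and 3 littermates homozygous for the null Npc1nih allele (Npc1-/-). By the study's methods, all mice were hybrids bred from BALB/cJ and C57BL6/J carriers, and the null allele was constitutive. The 6 libraries came joined in 1 count matrix, and no source used here gives a key from library to mouse. WT and Npc1-/- were therefore not compared, and libraries are called by number, 1 to 6. Values are given per library or as lowest, median and highest, with no test across libraries.

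Trimethylated H3K27 is the silencing mark set by the Polycomb repressive complex. KDM6A (UTX) and KDM6B (JMJD3) take it off, and KDM6A does so as a subunit of the MLL3/4 complexes of enhancers. Acetylation of the same lysine excludes methylation and marks active enhancers and promoters. It is set by EP300 and its paralog CBP, the product of Crebbp. Deacetylases of class I act inside corepressor complexes, HDAC1 and HDAC2 in Sin3, NuRD and CoREST, and HDAC3 in a complex of its own. HDAC9 belongs to class IIa, whose members have weak enzyme activity of their own and bind transcription factors of the MEF2 family. HDAC11 is the only class IV member. By the study's account, trimethylated H3K27 rises while cells of the oligodendrocyte lineage differentiate. In its cultures, an inhibitor of KDM6A and KDM6B brought maturation of Npc1-/- progenitors back to the WT level. HDAC1 and HDAC2 are known to take part in differentiation.

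Of 75878 barcodes, 75867 were kept. Libraries held 51343653 to 107583300 UMIs and a median of 4469 to 5439 UMIs per nucleus, and 631 of the barcode sequences occurred in 2 or more libraries. Nuclei were placed in 16 classes by fixed marker lists that hold none of the 9 genes, and classes are called "like" because they rest on these markers alone. In all, 42.8% of nuclei were named, 56.0% were not, and 1.12% carried markers of 2 unrelated classes and were set aside. In every class the marker list supplied 2 to 5 of the 10 genes of highest fold. The interneuron-like class was led by Adarb2, which also stood among the leading genes of the neuroblast-like class, so these classes are close. Lhx6, Sst and Pvalb, also on its marker list, were not among its 10 leading genes. Of its 9 markers, 7 had at least 2-fold the CPM of all other nuclei. Levels of the interneuron-like class thus describe the nuclei named and may not stand for all interneurons. Libraries differed in make-up. Mature oligodendrocyte-like nuclei numbered 529, 584, 108, 99, 375 and 73 in libraries 1 to 6, so that sums over this class rest mostly on libraries 1, 2 and 5. The myelin gene Mbp was at 1344, 1182, 340, 266, 948 and 239 CPM over all nuclei of these libraries. There were 129 to 507 immature and 324 to 602 oligodendrocyte progenitor cell (OPC)-like nuclei per library. A median over libraries, which gives each the same weight, kept every call of the 9 genes between the stages. RNA of neuronal genes, called neuronal RNA below, was counted in other nuclei too. Whether it came from neurons or was made in these nuclei was not tested. In the classes outside neurons, neuroblasts and dividing cells, 5 neuronal genes (Snap25, Syt1, Rbfox3, Grin1 and Camk2a) lay at medians of 17.5% to 39.6% of their level in excitatory neuron-like nuclei.

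A level is the share of a class's UMIs that belong to the gene, in CPM (1000000 times the share), with a 95% exact Poisson interval. A ratio of levels is given as log2 with a 95% exact binomial interval. Both cover counting error only, not the variation between mice. CPM is a share of the RNA of a class, and nuclei of different classes held different amounts. Excitatory neuron-like nuclei had a median of 10185 UMIs, mature oligodendrocyte-like 4927.5, immature 3952, astrocyte-like 3616 and OPC-like 3149.5. Unnamed nuclei had a median of 5809 UMIs and held neuronal RNA, with Syt1 at 2814 CPM (excitatory class 3902). Each of the 9 genes had more CPM in unnamed nuclei than in the excitatory class, for example Hdac3 (33.7 and 26.0) and Hdac11 (33.6 and 25.5). Levels of the excitatory class thus describe the nuclei named and may not stand for all neurons. Whether naming favoured nuclei with many UMIs was not tested. The 3' tag counts do not compare 1 gene with another, so levels are set side by side only within a gene.

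The starts of these genes were unlike in sequence. RefSeq promoters (GRCm38.p6) of 6 members were read, in the 250 bases before each start. None was at hand for Kdm6b and Hdac1, and that of Hdac3 is not reported here. CG pairs numbered 44 in Crebbp, 27 in Hdac2, 25 in Ep300, 17 in Hdac11 and 15 in Kdm6a, compared with a median of 6 over 32851 such windows. Hdac9 had 2 start sites, 388206 bases apart, with 0 CG pairs before the outer and 2 before the inner one. As many CG pairs as in Crebbp occurred in 0.539% of windows. The RefSeq starts of Crebbp and Ep300 lie downstream of the GENCODE ones, so that their windows fall wholly inside the GENCODE gene, and 150 bases of the Hdac11 window do. A GC box (GGGCGG on either strand) was found in the windows of the 5 other genes read and in neither window of Hdac9, and in 32.7% of all windows. Hdac9 is shown because its level differed most between classes, and Hdac2 because its window held the most CG pairs of those outside the GENCODE gene. Capitals mark CG pairs. Hdac2 is read from chr10:36974294-36974543 on the plus strand. The minus strand is given for Hdac9, outer start chr12:34917096-34917345 and inner start chr12:34528890-34529139, the latter wholly inside the GENCODE gene.
Hdac2: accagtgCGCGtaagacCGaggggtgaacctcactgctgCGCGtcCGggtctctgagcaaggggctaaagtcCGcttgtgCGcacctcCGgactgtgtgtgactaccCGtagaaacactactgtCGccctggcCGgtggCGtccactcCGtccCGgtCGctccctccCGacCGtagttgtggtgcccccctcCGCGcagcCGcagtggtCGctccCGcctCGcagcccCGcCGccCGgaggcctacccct
Hdac9 outer: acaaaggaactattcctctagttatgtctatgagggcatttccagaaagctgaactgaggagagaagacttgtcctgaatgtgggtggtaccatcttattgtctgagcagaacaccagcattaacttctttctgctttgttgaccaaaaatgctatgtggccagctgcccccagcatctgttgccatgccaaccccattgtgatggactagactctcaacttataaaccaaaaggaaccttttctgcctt
Hdac9 inner: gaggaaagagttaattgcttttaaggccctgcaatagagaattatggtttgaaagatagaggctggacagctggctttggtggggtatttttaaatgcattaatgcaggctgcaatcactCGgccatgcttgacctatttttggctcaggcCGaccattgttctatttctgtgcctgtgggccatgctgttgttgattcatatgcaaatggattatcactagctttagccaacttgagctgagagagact
A 3' tag does not tell which start a transcript came from, so Hdac9 UMIs are the sum over both.

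All 9 are protein-coding genes, placed here on GRCm38 by GENCODE M21. Kdm6a (ENSMUSG00000037369) lies on the X chromosome from 18162575 to 18279936 (plus strand), and Kdm6b (ENSMUSG00000018476) on chromosome 11 from 69398508 to 69413675 (minus). Ep300 (ENSMUSG00000055024) lies on chromosome 15 from 81585351 to 81652077 (plus), and Crebbp (ENSMUSG00000022521) on chromosome 16 from 4081328 to 4213997 (minus). Hdac1 (ENSMUSG00000028800) lies on chromosome 4 from 129516104 to 129542713 (minus), Hdac2 (ENSMUSG00000019777) on chromosome 10 from 36974544 to 37001889 (plus), and Hdac3 (ENSMUSG00000024454) on chromosome 18 from 37935844 to 37955016 (minus). Hdac11 (ENSMUSG00000034245) lies on chromosome 6 from 91156665 to 91174692 (plus). Hdac9 (ENSMUSG00000004698) on chromosome 12 from 34047580 to 34917095 (minus) spans 869516 bases. An antisense gene, Kdm6bos, lies inside Kdm6b and was counted separately, at 1198 UMIs compared with 17586 for Kdm6b.

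Across the 16 classes, both demethylases had their lowest CPM in projection neurons, and each had its own high classes. Kdm6a reached 184 CPM (177 to 192) in endothelial-like nuclei and 178 CPM (169.6 to 186) in mature oligodendrocyte-like ones, its 2 highest classes, whose intervals overlapped. Each of them was the highest class in some libraries, endothelial-like nuclei in 3 and mature nuclei in 2. Choroid plexus-like nuclei, at 164 CPM, were highest in the remaining library. At 75.8 CPM (73.5 to 78.1), excitatory neuron-like nuclei had the least Kdm6a, and they were the lowest class in 5 of 6 libraries. The span from highest to lowest class was 2.43-fold. Neighbours in the order were close throughout, and 14 of 15 neighbouring pairs had overlapping intervals.

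Kdm6b peaked at 74.9 CPM (69.2 to 81.0) in immature oligodendrocyte-like nuclei. Next came choroid plexus-like nuclei at 62.4 CPM (51.1 to 75.4) and neuroblast-like nuclei at 56.6 CPM (49.4 to 64.5). Immature nuclei were highest in 3 of 6 libraries, and their interval overlapped that of choroid plexus-like nuclei. The choroid plexus-like class was small, at 107 UMIs of Kdm6b, and its library values ran from 7.8 to 85.4 CPM. Striatal projection neuron-like nuclei were lowest at 23.0 CPM (21.2 to 24.9), with library values from 21.3 to 24.8 CPM. Their interval overlapped that of the small border macrophage-like class (23.4 to 43.6) and lay below those of the other 14 classes. Highest and lowest class differed 3.26-fold.

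The acetyltransferases were flatter. Ep300 was highest in microglia-like nuclei, at 188 CPM (177 to 200), with library values of 169 to 246 CPM (median 181). Fibroblast-like nuclei came next at 140 CPM (129 to 152), the intervals did not overlap, and microglia-like nuclei were above them in 6 of 6 libraries. Border macrophage-like nuclei, the other myeloid class, had 136 CPM (116.5 to 157) and were above microglia-like nuclei in library 4, at 205 and 177 CPM. Ep300 was lowest in excitatory neuron-like (88.5 CPM) and striatal projection neuron-like nuclei (89.6 CPM), with overlapping intervals. Crebbp ran from 398 CPM (379 to 418) in fibroblast-like to 235 CPM (231 to 239) in excitatory neuron-like nuclei, a 1.70-fold span. Excitatory neuron-like nuclei were lowest for Crebbp in 6 of 6 libraries, at 201 to 266 CPM (median 237).

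Among the class I deacetylases, Hdac1 had its top level, 62.2 CPM (57.3 to 67.4), in mature oligodendrocyte-like nuclei, close to immature nuclei at 57.8 CPM (52.8 to 63.2) and fibroblast-like nuclei at 56.4 CPM (49.2 to 64.3). It was lowest in striatal projection neuron-like nuclei at 17.0 CPM (15.5 to 18.7), in 6 of 6 libraries, and next lowest, at 24.9 CPM (23.6 to 26.3), in the excitatory neuron-like class. Hdac1 thus had a 3.66-fold span, with both projection neuron classes at its low end. Hdac2 had a span of 1.75-fold, from 59.4 CPM (53.4 to 65.9) in microglia-like to 33.9 CPM (32.4 to 35.5) in excitatory neuron-like nuclei. Hdac3 varied least, from 40.4 CPM (35.8 to 45.3) in interneuron-like to 26.0 CPM (24.7 to 27.4) in excitatory neuron-like nuclei, a 1.55-fold span. Excitatory neuron-like nuclei were the lowest class in 0 of 6 single libraries for Hdac2 and for Hdac3. All 15 neighbouring pairs overlapped for Hdac2 and for Hdac3, and likewise for Hdac11, which ran from 38.7 CPM (34.2 to 43.5) in interneuron-like to 20.1 CPM (17.7 to 22.6) in endothelial-like nuclei.

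The order of classes holds for CPM, and both its ends move with the scale. With size factors from the median of ratios the highest class was the same for 5 of 9 genes (Kdm6b, Ep300, Hdac1, Hdac3 and Hdac11), while Kdm6a moved to mature oligodendrocyte-like, Crebbp to astrocyte-like, Hdac2 to immature oligodendrocyte-like and Hdac9 to interneuron-like nuclei. Counted as UMIs per nucleus it was the same for 1 gene, Hdac1, and large excitatory neuron-like nuclei were highest for 6. The lowest class was the same for 2 genes with size factors (Hdac1 and Hdac11) and for 1 per nucleus (Hdac1), and excitatory neuron-like nuclei were then lowest for 0 genes. Kdm6a was lowest in neuroblast-like and Kdm6b in border macrophage-like nuclei with size factors, and both in microglia-like nuclei per nucleus. Hdac1 had mature oligodendrocyte-like nuclei highest and striatal projection neuron-like nuclei lowest on all 3 scales. Within CPM, leaving out 1 library at a time moved the highest class of Hdac2 (without library 3), Hdac3 (without library 1) and Hdac11 (without library 5 or 6). It moved the lowest class of Ep300 and Hdac11 (without library 4), of Hdac3 (without any of the 6) and of Hdac9 (without library 2, 4, 5 or 6, to fibroblast-like nuclei). Kdm6a, Kdm6b, Crebbp and Hdac1 kept both ends.

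**Figure D1:**
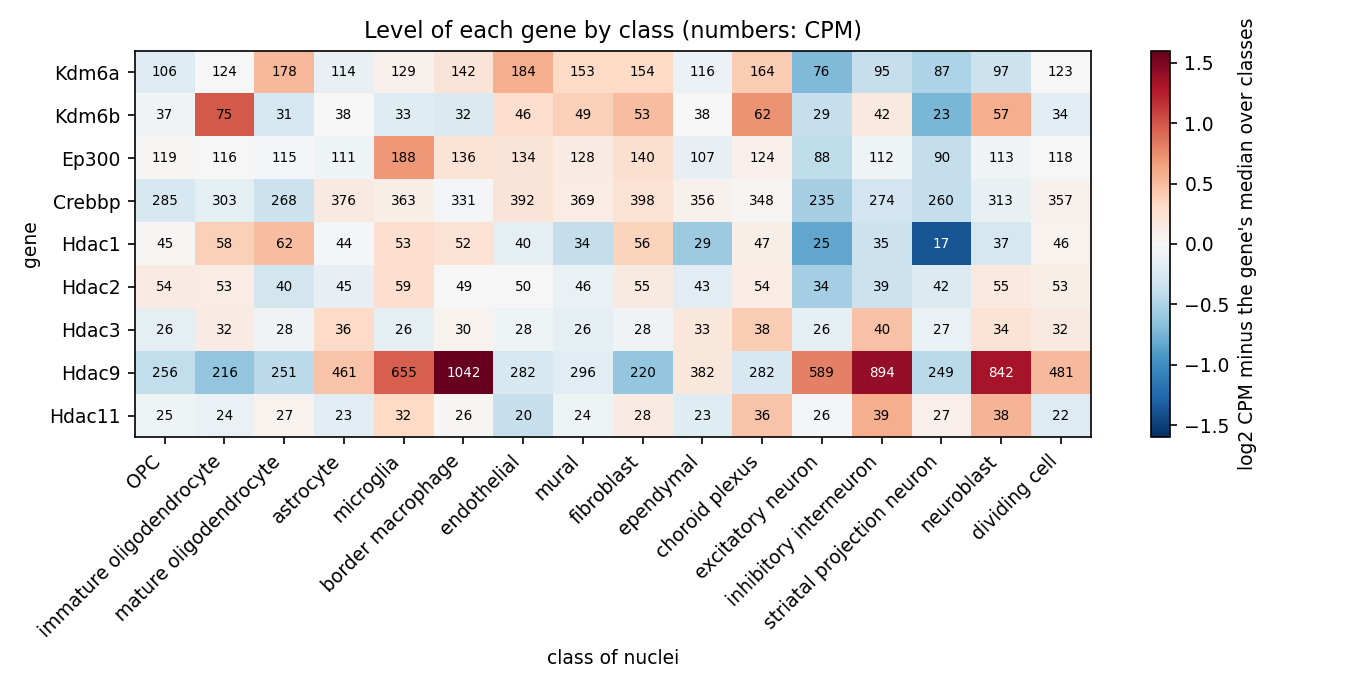
Level of the 9 genes in the 16 classes. Rows are genes and columns classes, numbers are CPM over all libraries, and colour is log2 CPM minus the gene's own median over classes, so colours compare classes within a gene. Hdac9 spans the widest range and Hdac3 the narrowest, and in CPM the excitatory neuron column is the lowest for 5 genes, which with size factors or per nucleus it is for 0. Of all genes tested, 30.9% had a higher CPM in excitatory neuron-like than in astrocyte-like nuclei.

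Hdac9 was the most class-specific of the 9. It was highest in border macrophage-like nuclei at 1042 CPM (987 to 1098), interneuron-like nuclei at 894 CPM (872 to 917) and neuroblast-like nuclei at 842 CPM (813 to 871). The 3 classes did not overlap in interval, and border macrophage-like nuclei were highest in 5 of 6 libraries, at 778 to 1803 CPM (median 1072). Microglia-like nuclei had 655 CPM (635 to 676) and library values of 499 to 812 CPM. Neuron classes lay far apart. The excitatory neuron-like class had 589 CPM (583 to 596). The striatal projection neuron-like class, at 249 CPM (243 to 255), lay below the interneuron-like class in 6 of 6 libraries. The lowest levels were 216 CPM (206.5 to 226) in immature oligodendrocyte-like nuclei and 220 CPM (205 to 235) in fibroblast-like nuclei, which overlapped, and the span over classes was 4.82-fold.

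Border macrophage-like nuclei also held the most neuronal RNA of the classes outside neurons, neuroblasts and dividing cells, at a median of 39.6% of the excitatory level for the 5 neuronal genes, with Hdac9 at 177% of it.

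Neuronal RNA and Hdac9 were highest in the same library in several classes where Hdac9 was low. Hdac9 in OPC-like, immature and mature nuclei lay at 43.4%, 36.7% and 42.6% of its excitatory neuron-like level. The 5 neuronal genes lay at 13.2% to 57.3%, 14.5% to 36.8% and 13.9% to 29.9% of theirs in the same classes. Library 4 had both the highest Hdac9 level and the most RNA of the 5 neuronal genes in each of the OPC-like, immature, mature, endothelial-like, fibroblast-like and mural-like classes. In OPC-like nuclei, for example, library 4 had 371 CPM of Hdac9 and 2533 CPM of the neuronal genes, and library 6 had 216 and 1072 CPM. The order of the other libraries was not always the same, and in fibroblast-like nuclei library 6 had the least neuronal RNA (1063 CPM) and the third highest Hdac9 level (210 CPM). The part of neuronal RNA in the low Hdac9 levels was not tested.

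**Figure D2:**
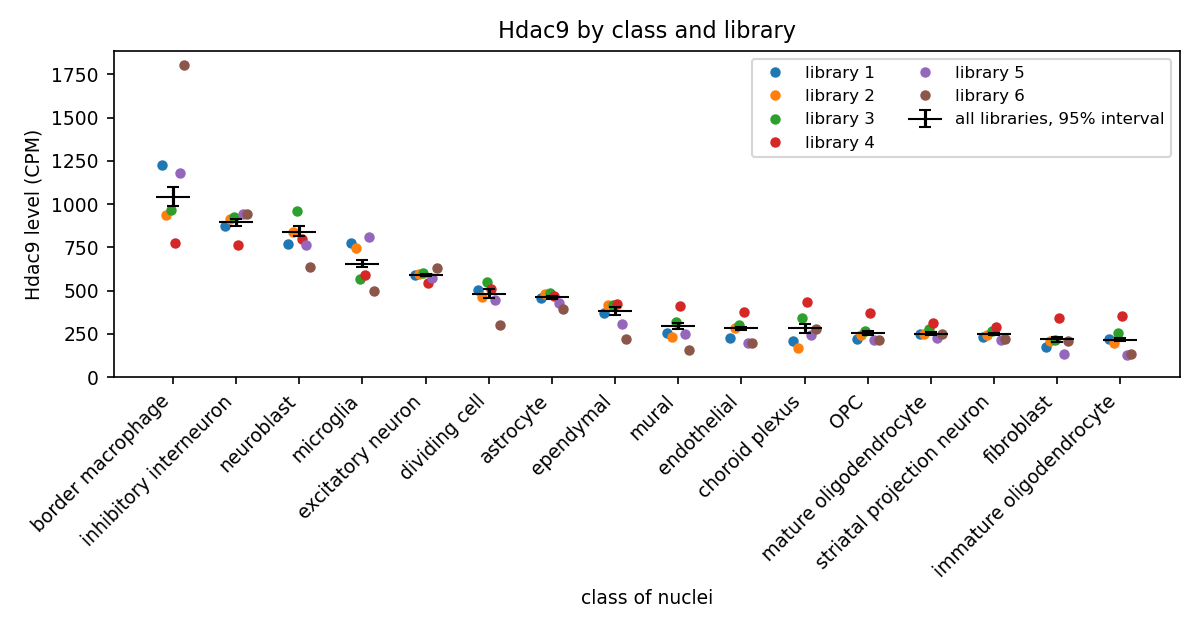
Hdac9 level in CPM (y axis) in each class of nuclei (x axis, from highest to lowest). Points are the 6 libraries and black marks the value over all libraries with its 95% Poisson interval. Border macrophage-like, interneuron-like and neuroblast-like nuclei stand at the top, and library 4 is the highest point in the OPC, immature, mature, endothelial, mural and fibroblast columns.

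The study measured H3K27 marks in cells of the oligodendrocyte lineage. The 9 genes were compared here between OPC-like, immature and mature nuclei. Kdm6b peaked at the immature stage and Kdm6a was highest at the mature stage. The library values of Kdm6b were 27.6 to 47.5 CPM (median 33.8) in OPC-like nuclei, 54.6 to 86.6 CPM (median 74.2) in immature nuclei and 22.1 to 36.5 CPM (median 30.4) in mature nuclei. All 6 immature values lay above all 6 OPC-like and all 6 mature values. The log2 ratio was 1.04 (0.85 to 1.23) from OPC-like to immature nuclei and higher in 6 of 6 libraries, and -1.26 (-1.46 to -1.06) from immature to mature nuclei and lower in 6 of 6. OPC-like and mature nuclei had close levels, with a log2 ratio of -0.22 (-0.45 to 0.00), which was 0.00 with size factors and 0.48 per nucleus.

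Kdm6a had library values of 88.5 to 137 CPM (median 104) in OPC-like nuclei, 93.8 to 153 CPM (median 130) in immature nuclei and 101 to 207 CPM (median 185) in mature nuclei. The stages overlapped between libraries, but within each library mature nuclei were above OPC-like nuclei. The log2 ratio was 0.21 (0.09 to 0.34) from OPC-like to immature nuclei, 0.53 (0.41 to 0.64) from immature to mature nuclei, and 0.74 (0.63 to 0.85) from OPC-like to mature nuclei. Library 4 was the exception in the later step, at -0.12, and the other libraries had 0.37 to 0.75.

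The acetyltransferases had close CPM levels through the lineage. Ep300 had 119, 116 and 115 CPM in OPC-like, immature and mature nuclei, with log2 ratios of -0.03 (-0.16 to 0.09) and -0.02 (-0.14 to 0.11) for the consecutive steps. Crebbp had 285, 303 and 268 CPM, with 0.09 (0.01 to 0.17) and -0.18 (-0.26 to -0.10). Libraries went either way for both genes, and as UMIs per nucleus the ratios from OPC-like to mature nuclei were 0.66 for Ep300 and 0.62 for Crebbp, past 1.5-fold.

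Hdac1 and Hdac2, which share complexes, moved apart. Hdac1 had 44.8, 57.8 and 62.2 CPM in the 3 stages and a log2 ratio of 0.47 (0.29 to 0.66) from OPC-like to mature nuclei, higher in 5 of 6 libraries. Hdac2 had 53.8, 53.3 and 40.2 CPM and a log2 ratio of -0.42 (-0.62 to -0.23), lower in 5 of 6 libraries. Library 4 was the exception for both, at -0.08 for Hdac1 and 0.26 for Hdac2. Neither passed 1.5-fold with CPM. Hdac1 passed it with size factors (0.70) and per nucleus (1.18), while the Hdac2 ratio was -0.20 with size factors and turned to 0.28 per nucleus. Hdac3 and Hdac11 had ratios of 0.11 (-0.15 to 0.36) and 0.12 (-0.14 to 0.38) from OPC-like to mature nuclei, intervals that hold 0. Per nucleus these were 0.81 and 0.82. Hdac9 had its lowest CPM of the 3 stages at the immature stage, with a log2 ratio of -0.24 (-0.33 to -0.15) from OPC-like nuclei and 0.21 (0.13 to 0.30) to mature nuclei, beside the neuronal RNA given above. Neither step passed 1.5-fold over all libraries. Libraries 5 and 6 carried much of it, at -0.73 and -0.69 and then 0.81 and 0.90, while the other libraries ran from -0.29 to 0.02 and then from -0.19 to 0.31. Per nucleus the ratio for the earlier step turned to 0.17.

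**Figure D3:**
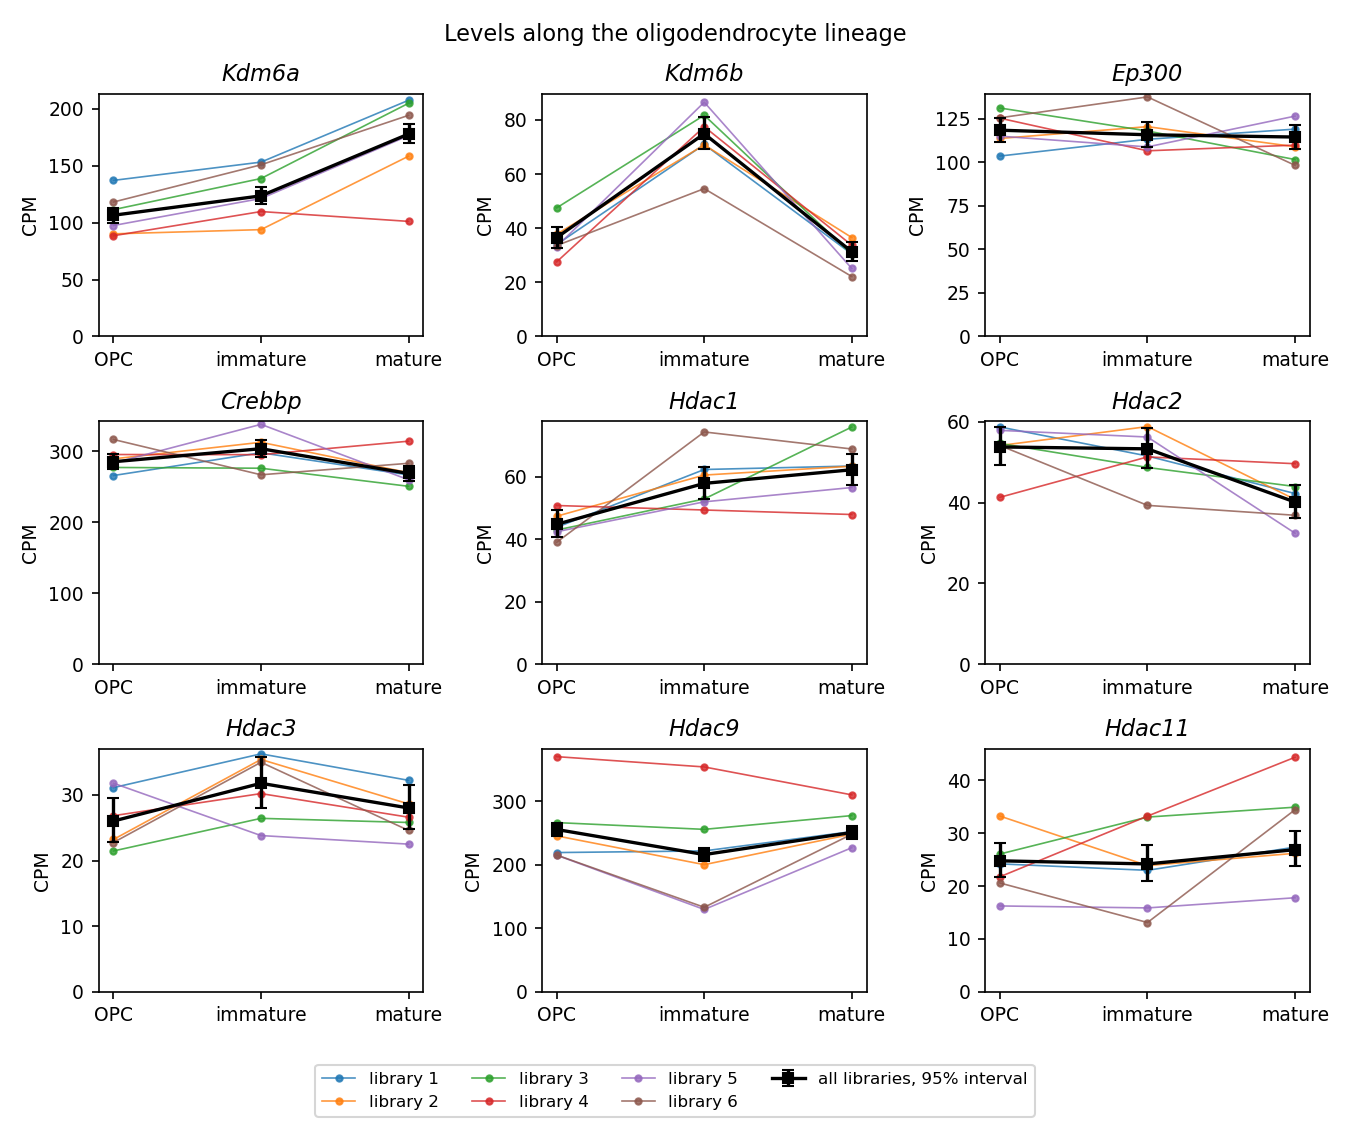
Level in CPM (y axis, from 0) at 3 stages of the oligodendrocyte lineage (x axis), 1 panel per gene. Coloured lines are the 6 libraries and black squares the value over all libraries with its 95% Poisson interval. Kdm6b is highest at the immature stage in every library (54.6 to 86.6 CPM), Kdm6a is highest at the mature stage in all libraries but library 4, and Ep300 and Crebbp run flat.

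Read against all genes, the members' counts lay near the background share or below it. A gene was called past 1.5-fold, and tested where it had 50 UMIs or more in both classes together, which all 9 members had. From OPC-like to immature nuclei 1 member was called higher (Kdm6b), compared with 9.8% of 13816 genes, and 0 lower, compared with 15.2%. From OPC-like to mature nuclei 1 was called higher (Kdm6a), compared with 13.5% of 13963 genes, and 0 lower, compared with 24.9%. From immature to mature nuclei 0 were called higher, compared with 10.2% of 13605 genes, and 1 lower (Kdm6b), compared with 14.8%. The median log2 ratio over the members was 0.09, -0.03 and -0.02 in these comparisons, and -0.09, -0.21 and -0.12 over all genes tested. Library values of the paired classes did not overlap for 1, 0 and 1 members, compared with 14.5%, 23.8% and 14% of genes. This count sets all values of a class against all of the other and does not use the pairing within libraries. The comparisons share classes and are not independent of each other.

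Scaling moved all genes of a comparison together. Size factors from the median of ratios added 0.09, 0.23 and 0.14 to every log2 ratio from OPC-like to immature, OPC-like to mature and immature to mature nuclei, and UMIs per nucleus added 0.42, 0.71 and 0.29. The rise of Kdm6b to the immature stage and its fall after it, and the rise of Kdm6a to the mature stage, kept their direction and their call under both. Of all genes called from OPC-like to mature nuclei, 35.1% were higher with CPM, 51.3% with size factors and 82.9% per nucleus. From OPC-like to immature nuclei these shares were 39.2%, 48.6% and 80.2%, and from immature to mature nuclei 40.7%, 54.5% and 68.7%.

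**Figure D4:**
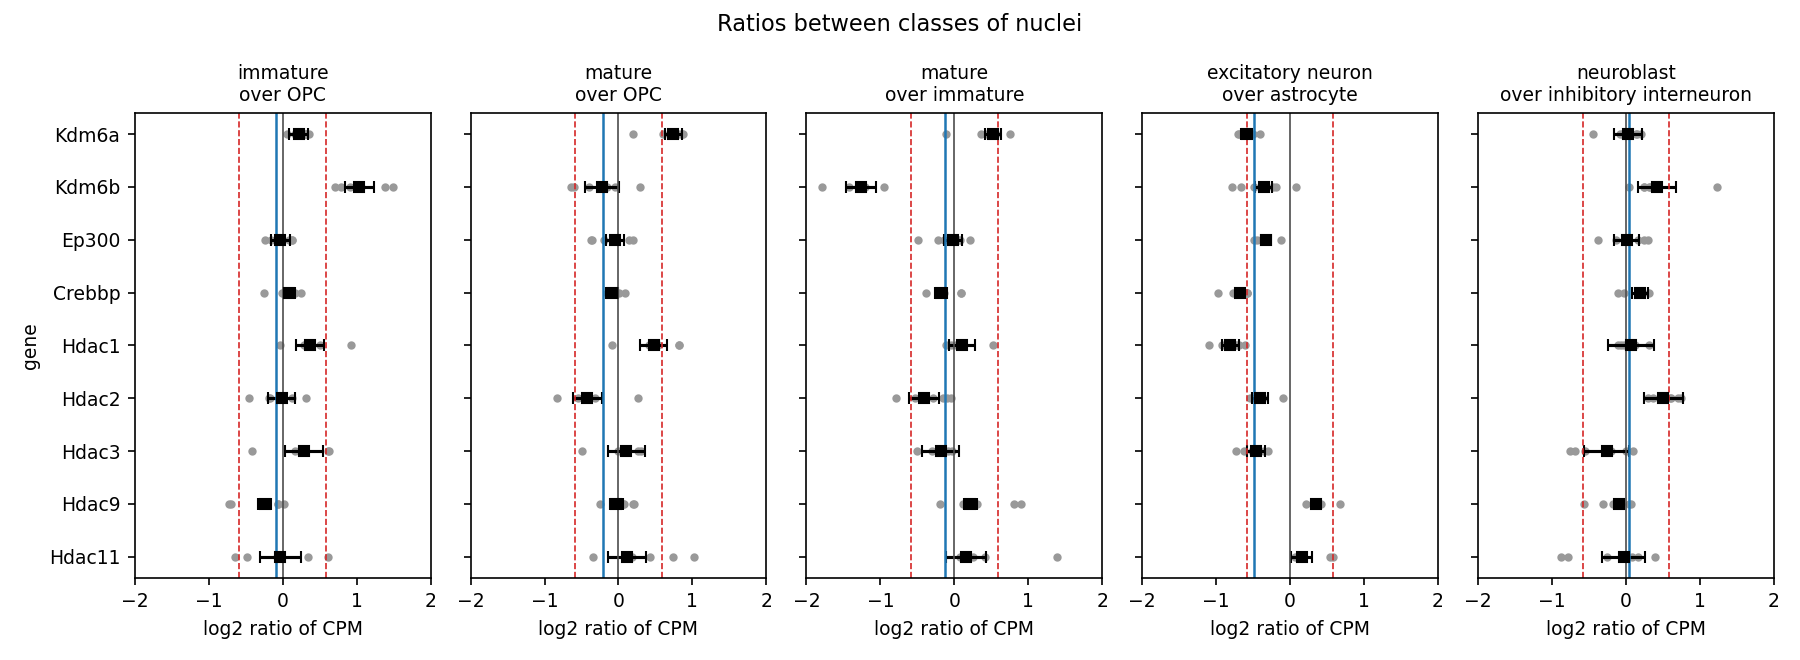
Log2 ratio of CPM (x axis) for the 9 genes (y axis) in 5 comparisons of classes. Black squares are all libraries with 95% binomial intervals, grey points single libraries, the blue line the median of all genes tested and the dashed red lines 1.5-fold. Kdm6b lies past 1.5-fold in opposite directions in the panels for OPC to immature and for immature to mature. In the neuron panel 7 of 9 genes lie below 0. The median of all genes there is -0.48, and 30.9% of them lie above 0.

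Excitatory neuron-like nuclei, called neuron-like here, and astrocyte-like nuclei were set against each other as the largest named neuron and glia class. Of the 9 members, 7 had a lower CPM in neuron-like nuclei. The other 2, Hdac9 and Hdac11, had a higher one, compared with 30.9% of 17271 genes. These directions are of the 2 classes alone and did not hold for every neuron class. For example, Hdac9 was at 249 CPM in striatal projection neuron-like and 461 CPM in astrocyte-like nuclei. Kdm6b was at 42.4 CPM (37.7 to 47.4) in interneuron-like and 37.8 CPM (35.3 to 40.3) in astrocyte-like nuclei. These Kdm6b intervals overlapped, and in libraries 4 and 6 the interneuron-like value was the lower one. Hdac1 had 24.9 and 43.7 CPM in neuron-like and astrocyte-like nuclei, a log2 ratio of -0.81 (-0.93 to -0.69). Crebbp had 235 and 376 CPM, a ratio of -0.68 (-0.72 to -0.64), and Kdm6a had 75.8 and 114 CPM, a ratio of -0.59 (-0.66 to -0.52). All 3 were lower in 6 of 6 libraries and past 1.5-fold, 3 of 9 members compared with 45.6% of 17271 genes. Kdm6a was just past the limit and fell under it without library 1, 3 or 5, at -0.56, -0.55 and -0.58. Ep300, Hdac2, Hdac3 and Kdm6b had ratios of -0.33 to -0.46. Hdac9 (0.35, 0.32 to 0.39) and Hdac11 (0.16, 0.01 to 0.30) were higher in neuron-like nuclei in 6 of 6 libraries, and 0 members passed 1.5-fold in that direction, compared with 17.3% of genes. The 6 library values did not overlap between the classes for 5 members (Ep300, Crebbp, Hdac1, Hdac3 and Hdac9), compared with 54.7% of genes.

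These directions depend on the scale. The median of all genes lay at -0.48, and the median of the members at -0.41. Size factors added 0.49 to every ratio. After this 0 members were past 1.5-fold lower, compared with 28.3% of all genes. Higher were 2 (Hdac9 at 0.84 and Hdac11 at 0.64), compared with 27.6%. Kdm6b, Ep300, Hdac2 and Hdac3 changed sign. Counted per nucleus, all 9 were past 1.5-fold higher in the neuron-like class, compared with 66.1% of all genes. There were 83.6 Kdm6a UMIs per 100 excitatory neuron-like nuclei and 45.3 per 100 astrocyte-like nuclei, and 27.5 and 17.4 of Hdac1. Of all genes called in this comparison, 27.5% were higher with CPM, 49.4% with size factors and 87.2% per nucleus. Hdac9 and Hdac11 kept their direction on all 3 scales.

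Neuroblast-like and interneuron-like nuclei, by their names a younger and an older cell, gave a further pair. Neither their age nor a shared lineage was tested. Hdac2 had library values of 47.4 to 65.2 CPM (median 56.2) in neuroblast-like and 31.3 to 44.2 CPM (median 39.1) in interneuron-like nuclei. All 6 values of the former lay above all 6 of the latter, and the log2 ratio was 0.50 (0.24 to 0.77). Non-overlap of this kind was seen for 1 member and for 4.6% of genes. Kdm6b was also higher in 6 of 6 libraries, at 56.6 and 42.4 CPM and a log2 ratio of 0.42 (0.16 to 0.67), with library 4 at 1.23 and the other libraries at 0.05 to 0.32. Crebbp had a ratio of 0.19 (0.08 to 0.29), and Hdac9 -0.09 (-0.15 to -0.03). The intervals of Kdm6a, Ep300, Hdac1, Hdac3 and Hdac11 held 0. No member passed 1.5-fold, 0 higher compared with 7.21% of 12376 genes and 0 lower compared with 5.05%. Size factors added -0.08 and UMIs per nucleus 0.17 to every ratio, and of all genes called 58.8%, 44.1% and 83.5% were higher with CPM, size factors and per nucleus. The Hdac2 and Kdm6b ratios stayed above 0 under both and passed 1.5-fold per nucleus, and the Hdac9 ratio turned to 0.09 per nucleus.

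Other genes of these pathways were read from lists. From OPC-like to mature nuclei 9 of 50 listed genes tested were called higher and 6 lower, compared with 13.5% and 24.9% of all genes. With size factors these counts were 12 and 2, compared with 18.2% and 17.3% of all genes. Per nucleus they were 31 and 0, compared with 43.5% and 8.95%. The lists hold the Y-linked Uty, called higher with size factors and per nucleus and near 0 CPM in libraries 1, 3 and 6. Its ratio over all libraries also depends on how many nuclei each library gave to a class. Ezh2, a methyltransferase that sets H3K27 methylation, was at 61.1 CPM in OPC-like nuclei and reached 130 CPM in the mature stage, a log2 ratio of 1.09 (0.95 to 1.23), while its paralog Ezh1 had a ratio of 0.10. The demethylase gene Kdm7a was lower in mature nuclei (-0.69, -0.85 to -0.53). Of 9 genes of the KDM6A complex 8 could be tested, with a median of 0.01. In mature nuclei 1 was called higher than in OPC-like nuclei, compared with 13.5% of all genes. It was Rbbp5 (0.83, 0.55 to 1.11), a core subunit. Among 7 other acetyltransferases, with a median of 0.03, 1 was called higher, beside the same 13.5% of all genes. It was Kat2b (1.15, 1.01 to 1.28), which encodes PCAF.

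Among the 6 other zinc-dependent deacetylases, 2 were higher in mature than OPC-like nuclei, compared with 13.5% of all genes. They were Hdac5 (1.24, 1.00 to 1.49) and Hdac7 (0.79, 0.57 to 1.02). Lower were 4, compared with 24.9% of all genes: Hdac4 (-0.59), Hdac6 (-1.25), Hdac8 (-0.69) and Hdac10 (-0.86). Hdac4 was just past the limit. With size factors 2 were higher and 2 lower, compared with 18.2% and 17.3% of all genes. Per nucleus these counts were 2 and 0, compared with 43.5% and 8.95%. With CPM the median of these 6 genes was -0.64, compared with 0.11 for the 5 deacetylases among the members. Of the 7 sirtuins, the NAD-dependent deacetylases, 2 were higher and 1 lower, beside the same shares of all genes. With size factors 3 were higher and 0 lower, and per nucleus 4 and 0. Sirt2, which is abundant in myelinating cells, had 144, 920 and 435 CPM in the order OPC-like, immature and mature, a peak at the same stage as Kdm6b. Among corepressor subunits, Chd3, a NuRD remodeler, went from 164 to 468 CPM and back to 117 CPM in mature nuclei, and the interval of the log2 ratio for the later step was -2.09 to -1.90. In mature nuclei Mta3 of NuRD reached 248 CPM from 111 CPM in OPC-like nuclei. In the stage comparisons where they were past 1.5-fold, the genes named here had the same direction in 6 of 6 libraries, except Hdac6 (5 lower, 1 higher) and Hdac10 (lower in the 5 with a value). This does not cover genes that were counted and not named. Counted per nucleus, the ratios of Kdm7a, Hdac4 and Hdac8 from OPC-like to mature nuclei turned above 0.

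Between excitatory neuron-like and astrocyte-like nuclei 21 of 51 listed genes tested were called lower and 0 higher, compared with 45.6% and 17.3% of genes. With size factors 8 were lower and 6 higher, compared with 28.3% and 27.6% of all genes. Per nucleus these counts were 2 and 38, compared with 9.72% and 66.1%. With CPM both methyltransferases were called lower, Ezh2 at -1.77 and Ezh1 at -0.67. Called lower were also 3 of 9 genes of the KDM6A complex, 3 of 7 other acetyltransferases, 1 of 6 other zinc-dependent deacetylases, 3 of 7 sirtuins and 6 of 15 corepressor subunits, compared with 45.6% of all genes. The 1 deacetylase was Hdac8, at 142 CPM in neuron-like and 1152 CPM in astrocyte-like nuclei, a log2 ratio of -3.02 (-3.06 to -2.98). Kat2b followed with -2.62 (-2.74 to -2.50). These 2 genes stayed past 1.5-fold lower on all 3 scales. Ezh2 was past it with size factors and not per nucleus, and Ezh1 turned above 0 per nucleus. Between neuroblast-like and interneuron-like nuclei 2 of 49 listed genes tested were called, both higher, compared with 7.21% of all genes. With size factors 2 were higher and 1 lower, compared with 5.32% and 6.75% of all genes. Per nucleus these counts were 6 and 0, compared with 13.7% and 2.71%. The 2 called with CPM were Ezh2 (1.04, 0.83 to 1.26) and Kat6b (0.71, 0.60 to 0.81).

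Over all nuclei the members spanned 1.09-fold to 1.46-fold between libraries, and the gene that differed most, Kdm6a, moved with the sex-linked genes. Ep300 ran from 101 to 111 CPM, Hdac9 from 566 to 616 CPM and Crebbp from 238 to 292 CPM over the 6 libraries, spans of 1.09-fold, 1.09-fold and 1.22-fold. Kdm6b, Hdac3 and Hdac11 had spans of 1.36-fold, 1.30-fold and 1.30-fold. Crebbp, Hdac1, Hdac2, Hdac3 and Hdac11 had their lowest values in libraries 5 and 6, for example 28.0 and 28.3 CPM for Hdac1 (34.7 to 34.9 CPM in the others). Kdm6a had the widest span of the 9, 1.46-fold, with 118, 81.3, 107, 81.4, 85.2 and 103 CPM in libraries 1 to 6. It is X-linked and known to escape X inactivation in mice, and Uty is its Y-linked homolog. Xist, the RNA of the inactive X chromosome, was at 1268, 4.11, 1262, 4.71, 1.92 and 422 CPM in libraries 1 to 6. Uty was at 0.07, 151, 0.43, 153, 154 and 0.04 CPM, and Ddx3y, Eif2s3y and Kdm5d had the same high and low libraries. Kdm6a was thus higher in libraries 1, 3 and 6, where Xist was high and Uty near 0, than in libraries 2, 4 and 5. The same held in 14 of 16 classes and not in microglia-like nuclei, where library 1 had 118 and library 5 had 146 CPM, or mural-like nuclei, where they had 155 and 159 CPM. Within excitatory neuron-like nuclei libraries 1, 3 and 6 had 95.9, 80.0 and 85.8 CPM and libraries 2, 4 and 5 had 63.2, 66.3 and 66.8 CPM. Within astrocyte-like nuclei these values were 149, 129 and 139.5 CPM compared with 83.6, 94.2 and 103 CPM. GEO's labels give no sex for these mice, and the part of sex in these values was not tested.

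**Figure D5:**
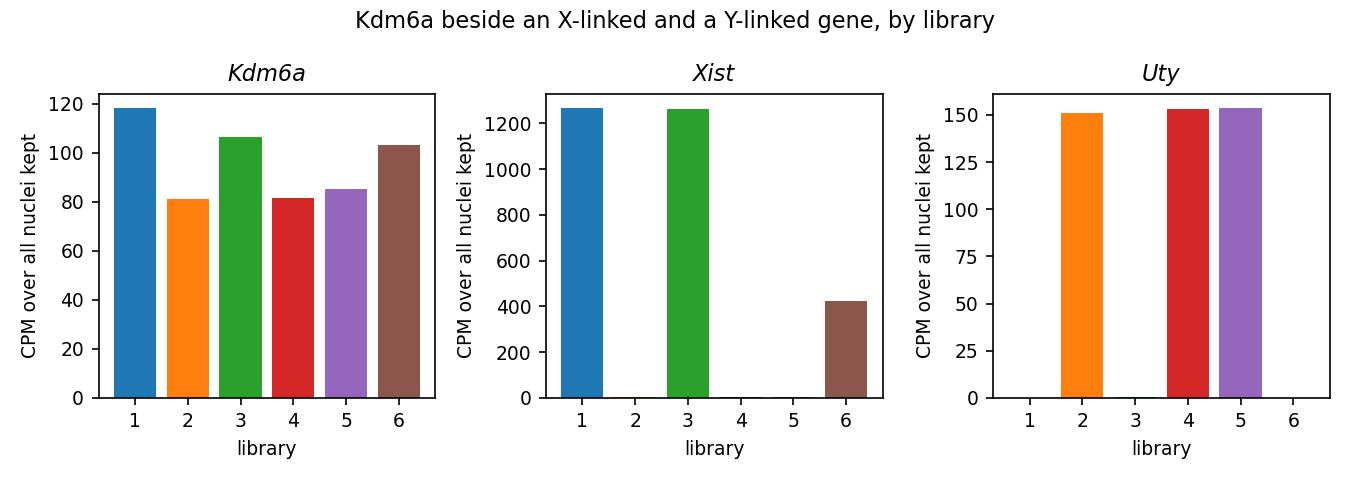
Level in CPM over all nuclei kept (y axis, from 0) of Kdm6a, the X-linked Xist and the Y-linked Uty in each of the 6 libraries (x axis, 1 bar each). The libraries with Kdm6a at 103 CPM or more are the ones with Xist at 422 CPM or more and Uty near 0.

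Genes with the most similar pattern over the 16 classes were sought among 14816 genes with 1000 UMIs or more, by Pearson's r of log2(CPM + 1). The classes share libraries, depth and possibly RNA carried over between nuclei, so r is a description. Kdm6a was most like Pdxdc1 (r = 0.95), Ilrun (0.93) and Cryab (0.92). Kdm6b was most like Sh3rf1 (0.82), Tfcp2 (0.81) and Chd3 (0.80), all highest in immature oligodendrocyte-like nuclei. Ep300 followed Erp29, Gdi2 and Scoc (0.94 to 0.95), all highest in microglia-like nuclei, and Crebbp followed Mtpn, Eif2ak2 and Eci2 (all 0.95). Hdac1 was most like Prpf31 (0.91), Trip11 (0.90) and Rsrc1 (0.89), and Hdac2 most like Nolc1 (0.92), Zfas1 (0.91) and Zfp408 (0.90), the latter all highest in microglia-like nuclei. The values for Hdac9 were Tmem25 (0.87), Ntng1 (0.87) and Htr7 (0.83), those for Hdac11 Lancl1, Auh and Adamts19 (all 0.83), and those for Hdac3 Kantr (0.80), Sdsl (0.80) and Tnfsf13b (0.77). Among the members themselves Ep300 and Hdac2 were most alike (0.71), and Kdm6a and Hdac9 least (-0.39).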

How the data were processed

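The labels describe nuclei isolated from flash-frozen P16 forebrain and 10x Genomics 3' v2 libraries of 3 WT and 3 Npc1-/- mice. The authors deposited 1 matrix of raw UMI counts per gene and barcode, in which a suffix of 1 to 6 gives the library. The submitters' processing notes name Cell Ranger 2.1.1 and mm10, the matrix header names Cell Ranger 6.0.0, and the study's methods name STARsolo with GRCm38. The sources used here do not say whether intronic reads were counted. The methods describe removal of empty droplets and doublets, and whether the deposited barcodes had passed it is not stated. No doublet caller was run here.

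Barcodes with under 10% mitochondrial UMIs were kept. Each was scored by the likelihood of its marker counts in each class (seeded with 300 nuclei) against background, and was named with a log-likelihood ratio of 7 or more and 2 or more different markers (3 for dividing cells). Nuclei past the limits of 2 unrelated classes were set aside. UMIs were summed per class. Intervals are 95% and cover counting error only. Without a key from library to mouse no test between genotypes, replicate block, edgeR or DESeq2 fit was made, and no p-value is given. Some genes of the pathway lists are not reported here. The members, lists and class comparisons were chosen with earlier results of these data known, and the limits of the marker gate were set after marker counts had been seen. Genes of likeness were the 3 of highest r per member. Sequences were credited to RefSeq as given. The scripts ran in Python 3.11.15 with numpy 2.4.6, scipy 1.17.1 and pandas 2.3.3 and were tested on simulated data. Alternatives were other scalings, a median over libraries, a stricter (3 markers) and a looser (1 marker) gate, depth and mitochondrial limits, and leaving out each library.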

Additional observations from a re-analysis of the deposited data

Results flagged for a closer look

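In 3 of 54 sets of 6 library values checked, 1 library stood far from the others. Chance flags about 1 in 20 such sets, and the 6 libraries are not samples of 1 labelled group. The log2 ratio of Hdac1 from immature to mature oligodendrocyte-like nuclei was 0.52 in library 3, with the other libraries from -0.11 to 0.12. Library 3 had 108 mature nuclei. The ratio of Hdac11 in the same comparison was 1.39 in library 6, with the others from 0.08 to 0.42, and library 6 had the fewest nuclei of both classes, 129 immature and 73 mature. The ratio of Kdm6b from interneuron-like to neuroblast-like nuclei was 1.23 in library 4, with the others from 0.05 to 0.32. Library 4 had 84 neuroblast-like nuclei, the fewest of the 6.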

How the results depend on the processing

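No paired analysis was possible because, for WT and Npc1-/- mice, no source used here gives a key from library to mouse. Classes were compared within each library by direction only. The genotype test, its replicate block and its DESeq2 alternative were therefore not run. Of 630 recomputed member ratios, 547 kept their sign and their side of 1.5-fold, 18 came past it and 7 fell under it with their sign kept, and 58 changed sign. Of these 58, 48 were under 1.5-fold on both scales, 15 of them with size factors, 11 per nucleus and 15 without 1 library. The other 10 were past 1.5-fold on at least 1 of the scales and all came from counting UMIs per nucleus, and of these Kdm6a, Crebbp and Hdac1 in excitatory neuron-like nuclei turned from past 1.5-fold lower to past 1.5-fold higher. From OPC-like to mature nuclei Ep300, Crebbp and Hdac9 then had 0.66, 0.62 and 0.68. From astrocyte-like to excitatory neuron-like nuclei Kdm6a, Kdm6b, Ep300, Crebbp, Hdac1, Hdac2 and Hdac3 had 0.89, 1.12, 1.14, 0.79, 0.66, 1.06 and 1.01. The construction of this scale, which multiplies by the RNA per nucleus, gives the shift. Members higher by 1.5-fold numbered 4 per nucleus from OPC-like to immature nuclei, compared with 26.4% of all genes. From OPC-like to mature nuclei they numbered 2 with size factors and 7 per nucleus, compared with 18.2% and 43.5%. From immature to mature nuclei they numbered 1 with each, compared with 12.9% and 17.9%. Higher in excitatory neuron-like than astrocyte-like nuclei were 2 with size factors and 9 per nucleus, compared with 27.6% and 66.1% of all genes. Lower were 0 with either, compared with 28.3% and 9.72%. Higher in neuroblast-like than interneuron-like nuclei were 2 per nucleus, compared with 13.7% of all genes. The count was 1 (Hdac2) with the median over libraries (0.61) and with the stricter gate (0.74). Leaving out 1 library gave 0 to 1, with Hdac2 at 0.60 without library 3. The highest class was the same for 5 members with size factors and for 1 per nucleus.

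With a fold of 2 the shares of all genes called higher and lower were 5.51% and 6.51% from OPC-like to immature, 8.72% and 13.2% from OPC-like to mature, and 5.79% and 6.53% from immature to mature nuclei. They were 30.4% lower in excitatory neuron-like nuclei, and 2.01% and 1.41% in neuroblast-like nuclei. With 1 UMI or more in each class in place of 50 in both, the neuroblast shares were 17.7% and 11.1%. Depth limits the small classes: Kdm6b had 43 UMIs in border macrophage-like nuclei. Kdm6a in excitatory neuron-like nuclei fell under 1.5-fold also without the 10% of nuclei of most UMIs (-0.57) and with size factors (-0.10).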
